A study of Mus musculus with 9 samples.

Results

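Of the 23309 gene symbols measured in sorted mouse podocytes, 98 were higher in every library taken 9 days after ADR than in any PBS library and were below every day 9 library in all libraries taken 14 days after ADR. They include Marveld1, Itgb5, Metrnl, Gnas, Fyn, Sirpa and Tdrd5. The difference that defines them was modest in most, and in 82 of the 98 the lowest PBS value stood in the same library, PBS replicate 3. These genes were chosen by their values. On log2(FPKM + 1), the lowest day 9 library had to exceed the highest PBS library, the day 9 mean had to exceed the PBS mean by at least 0.8, the highest day 14 library had to lie below the lowest day 9 library, and the day 9 mean had to reach 2 FPKM. FPKM is a fragment count divided by transcript length and by library size, so levels of different genes can be set side by side. Another 6 genes met the same thresholds and are left out by name (Crb2, Foxc2, Limk1, Lmx1b, Synpo and Thbd), as are small RNAs. Since the rule used the day 9, day 14 and PBS values, day 9 against PBS and day 14 against day 9 are described here and not tested.

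Podocytes are the epithelial cells whose interlocking foot processes wrap the glomerular capillaries and, with the slit diaphragm between them, hold back plasma protein. The cells came from mice with the mTmG reporter and a podocyte Cre, genotype given as wildtype, aged 7 to 8 weeks. In such mice a Cre recombinase driven by a podocyte promoter switches a membrane reporter to green fluorescent protein, and RNA was taken from the GFP-positive cells, so every library shares the reporter and the Cre. There were 3 libraries from day 9 after ADR injection (ADR_D9), 3 from day 14 after ADR injection (ADR_D14) and 3 from mice given PBS. ADR is the usual abbreviation of Adriamycin (doxorubicin), a drug long used to injure podocytes in rodents, although the labels do not spell it out. Whether replicate libraries are separate animals is not in the labels, so tests measure only the spread between these libraries. In RNA from sorted cells, fewer transcribing cells and less RNA per cell cannot be told apart.

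The podocyte label held in all libraries: the summed level of 12 podocyte markers was 10530 to 16120 FPKM on day 9, 3095 to 12140 FPKM on day 14 and 9712 to 12880 FPKM in PBS. Some libraries also held markers of other cells. The 12 endothelial markers summed to 28.8, 7.61 and 3304 FPKM on day 9, to 799, 1.26 and 17.8 FPKM on day 14 and to 12.7, 7.08 and 4.19 FPKM in PBS, so ADR_D9 replicate 3 and ADR_D14 replicate 1 stood apart. All 12 were more than 4 times the highest PBS library in both. The 8 leukocyte markers summed to 1332 FPKM in ADR_D9 replicate 3 and 2073 FPKM in ADR_D14 replicate 1, against 12.2 and 25.5 FPKM in the other day 9 libraries and at most 51.1 FPKM in PBS. ADR_D14 replicate 1 also carried 12400 FPKM over 8 markers of the loop, distal tubule and collecting duct. The 6 red cell markers summed to 547, 0.350 and 245 FPKM on day 9, to 64.5, 2.22 and 0.708 FPKM on day 14 and to 0.923, 5.45 and 0.563 FPKM in PBS, so they were highest in ADR_D9 replicate 1. The Y-linked gene Eif2s3y was at 36.6, 0.777 and 0 FPKM on day 9 and at 0.0931, 60.3 and 0 FPKM on day 14. In PBS it was at 43.7, 34.3 and 31.6 FPKM. Ddx3y, also Y-linked, was at 11.4, 0.247 and 0.018 FPKM on day 9 and at 0.0328, 8.04 and 0 FPKM on day 14. In PBS it was at 12.9, 15.2 and 19.3 FPKM. Both genes varied within both ADR groups, with libraries at or near 0, whereas every PBS library held them. By these genes sex was uneven between PBS and ADR, and its part in the day 9 and day 14 differences was not tested. Relative sequencing depth, estimated from the spacing of low FPKM values with PBS replicate 2 set to 1, was 0.785 to 0.889 on day 9, 0.240 to 0.570 on day 14 and 1 to 1.09 in PBS, and read counts were not used here.

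The members have GC-rich start sites, and the series is concerned with WT1, the zinc-finger factor that keeps podocytes differentiated and binds G-rich sites of the EGR type. RefSeq promoter windows of the mouse build GRCm38.p6 were matched to 74 of the 98 members. The median GC content of the 250 bases before the start was 66.6% for the members, 60.0% for all 7302 windows of tested genes and 52.0% for all 27025 windows. The letters GNGTGGGNG, a WT1 and EGR type motif searched on both strands, stood in the windows of 14 of 74 members (18.9%), 15.02% of tested genes and 12.5% of all windows. The 4 windows below, 250 bases up to the base before the annotated start, are shown because they hold that motif in members that carry the results: Tdrd5 and Gja3 met the rule whichever 1 library was left out, Ppp1r13b holds the motif at 2 places, and Ctbp1 is a member whose difference rests on PBS replicate 3. Each is written 5′ to 3′ along the gene, with the motif (or its reverse complement) in capitals. Tdrd5 is at chr1:156303349-156303598, minus strand, Gja3 at chr14:57058031-57058280, minus strand, Ppp1r13b at chr12:111908056-111908305, minus strand, and Ctbp1 at chr5:33275005-33275254, minus strand.
Tdrd5: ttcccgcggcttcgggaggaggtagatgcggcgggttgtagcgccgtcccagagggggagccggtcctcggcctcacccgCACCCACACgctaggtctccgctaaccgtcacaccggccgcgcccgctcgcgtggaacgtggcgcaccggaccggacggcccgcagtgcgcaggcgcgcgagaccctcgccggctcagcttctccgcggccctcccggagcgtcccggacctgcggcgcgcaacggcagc
Gja3: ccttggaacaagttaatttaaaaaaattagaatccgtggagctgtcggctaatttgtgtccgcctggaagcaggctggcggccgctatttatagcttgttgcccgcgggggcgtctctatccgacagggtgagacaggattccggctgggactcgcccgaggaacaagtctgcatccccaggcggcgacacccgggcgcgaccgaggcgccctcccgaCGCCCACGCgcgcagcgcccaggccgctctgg
Ppp1r13b: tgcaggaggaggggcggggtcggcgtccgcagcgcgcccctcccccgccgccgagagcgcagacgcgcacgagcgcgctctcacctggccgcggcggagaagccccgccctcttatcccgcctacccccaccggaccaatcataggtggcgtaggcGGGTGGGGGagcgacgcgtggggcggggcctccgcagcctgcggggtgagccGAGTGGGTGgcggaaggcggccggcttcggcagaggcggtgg
Ctbp1: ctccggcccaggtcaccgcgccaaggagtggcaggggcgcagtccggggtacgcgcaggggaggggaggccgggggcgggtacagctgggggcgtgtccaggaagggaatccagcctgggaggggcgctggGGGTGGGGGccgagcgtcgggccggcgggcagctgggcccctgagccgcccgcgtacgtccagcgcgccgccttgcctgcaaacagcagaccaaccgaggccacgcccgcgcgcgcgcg
The first motif base lay 170 bases before the start in Tdrd5, 32 in Gja3, 94 and 42 in Ppp1r13b and 119 in Ctbp1. A match of letters describes the window and does not show that a factor binds there.

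Other motifs were searched in the same windows on both strands. The GC box GGGGCGGGG was found in 21 members (28.4%), 20.2% of tested genes and 10.5% of all windows, among them Itgb5, Smad6 and Hipk2. The forkhead letters TGTTTAC were found in 3 members (4.05%), 2.11% of tested genes and 3.09% of all windows. The cAMP response element TGACGTCA stood in the window of Purb alone (1.35%), against 2.78% of tested genes and 1.62% of all windows. A TATAAA box was found in Gja3, Gnas and Pank1 (4.05%), 6.2% of tested genes and 13.0% of all windows. No motif in this set contains another, and the GC box and the WT1 and EGR type have different letters at their centre, so 1 stretch of 9 bases cannot match both in register.

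The rule found 96 members among the 9788 genes that passed the filter on low values (0.981%). The remaining 2, Upk1b and Olfr558, did not reach 1 FPKM in at least 3 libraries. With the groups exchanged, the same thresholds found 821 genes for day 14 above both other groups and 66 for PBS above both. Day 9 against PBS gave 0 of 9788 genes past limma at an adjusted p of 0.05 (0.0%), with 304 genes at an unadjusted p under 0.05, and the smallest adjusted p by limma was 0.9999. All day 9 libraries lay above all PBS libraries in 663 genes (6.77%). These counts are background to a list that the same contrast chose, and nothing about the members is read from them.

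**Figure D1:**
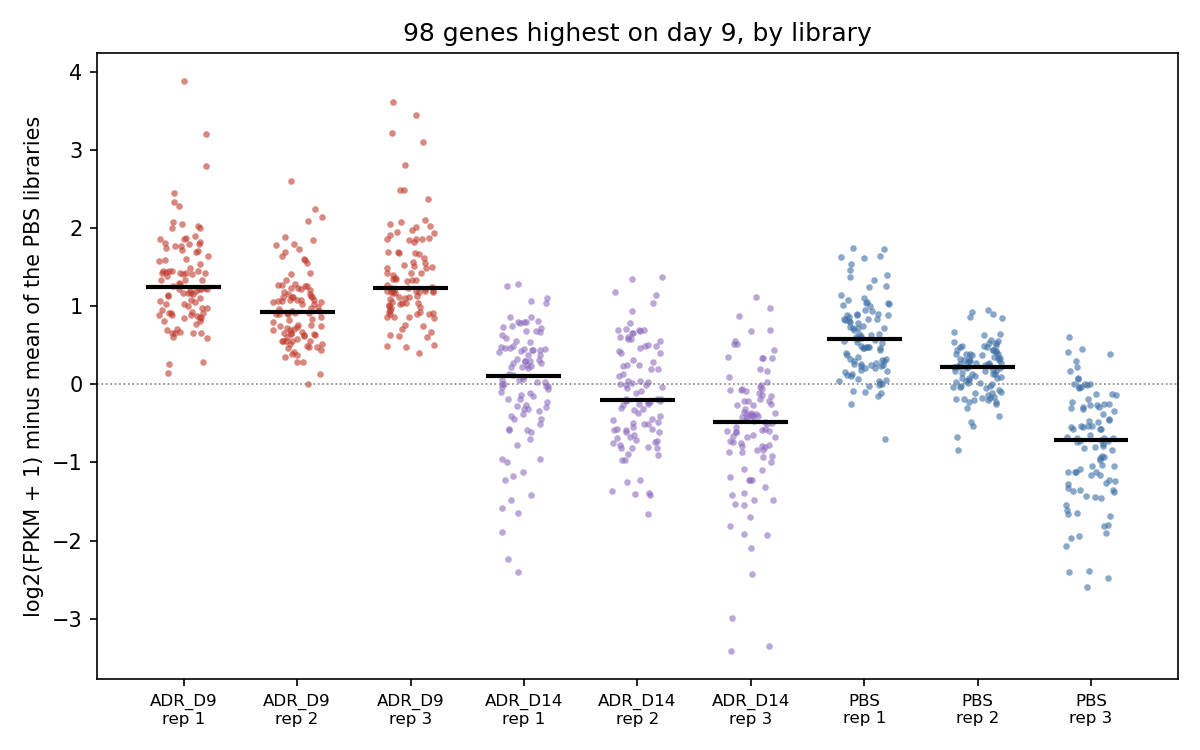
Each point is 1 of the 98 genes in 1 library, as log2(FPKM + 1) minus that gene's mean over the PBS libraries, and black lines are medians. The day 9 medians are 1.25, 0.92 and 1.24, and those of the PBS libraries are 0.57, 0.22 and −0.72, so the PBS libraries spread about as widely as the day 9 libraries lie above 0.

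The PBS libraries of the members were far apart, and PBS replicate 3 was usually the lowest. The members' median difference between day 9 and PBS was 1.14 (range 0.80 to 2.99) on log2(FPKM + 1), where that of all genes tested was 0.04. PBS replicate 3 was the lowest PBS library in 82 members (83.7%), against 35.4% of all genes tested, while PBS replicate 2 was lowest in 10 and PBS replicate 1 in 6. The median of PBS replicate 3 minus the mean of the other PBS libraries was −1.08 in the members and 0.05 in all genes tested. The rule favours genes with 1 low control, since a low value widens the difference of means, so this is a description of the list.

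Against PBS replicates 1 and 2 alone, the median difference was 0.80 in the members and 0.05 in all genes tested. Then 50 members still met the rule and 48 fell below the 0.8 threshold, and PBS replicate 3 was the lowest control in all 48. Run afresh without PBS replicate 3, the rule found 63 genes, 50 of them members. Leaving out ADR_D9 replicate 3, the library with endothelial and leukocyte markers, kept 76 members, and leaving out ADR_D9 replicate 1 kept 81. Leaving out a day 14 library can only loosen the rule, so it was no check. In all, 31 members met the rule whichever 1 library was left out, and 29 of the 31 also had PBS replicate 3 as their lowest control. This applies the rule again to the values that chose the genes, and describes how far each rests on 1 library.

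**Figure D2:**
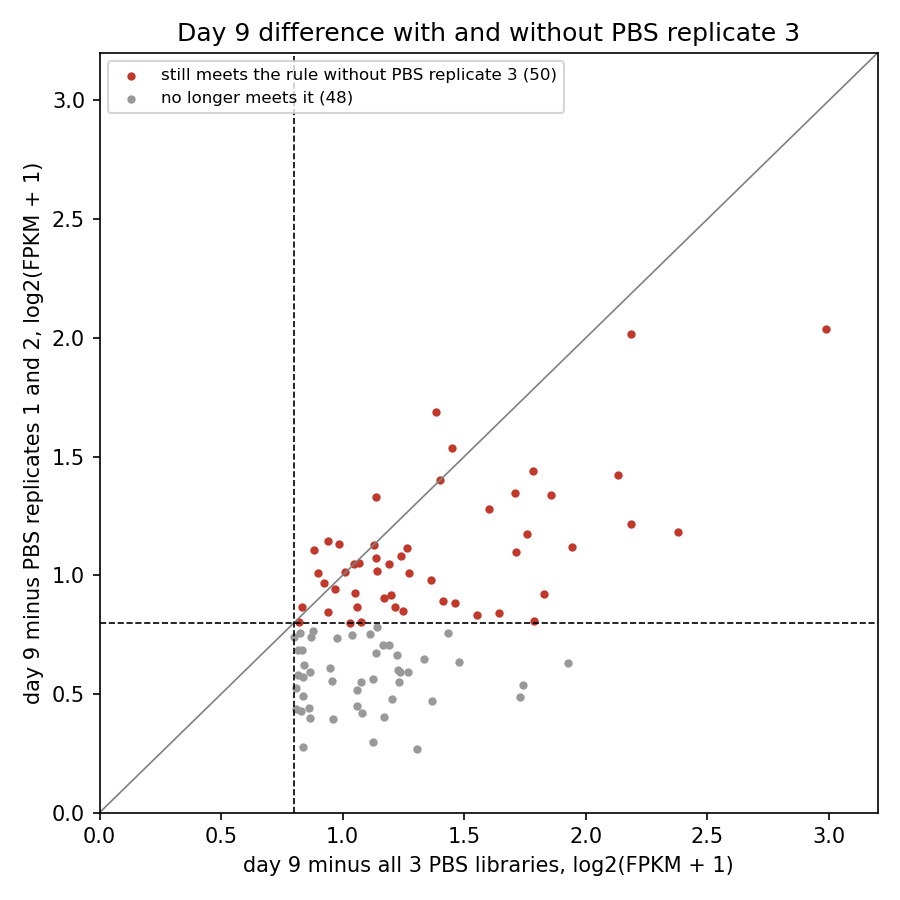
Each point is 1 member, with the day 9 difference from all 3 PBS libraries on the horizontal axis and from PBS replicates 1 and 2 on the vertical axis, both on log2(FPKM + 1). Dashed lines mark 0.8 and the grey line equality; most points lie below it, and 48 fall under the horizontal dashed line.

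The gap between groups was narrow. The lowest day 9 library was a median of 1.164 times the highest PBS library in FPKM. That ratio was under 1.1 in 30 members, at least 1.1 in 68, at least 1.5 in 11 and at least 2 in 2, namely Rassf10 (2.33) and Olfr558 (7.88, with every PBS library at or below 0.0128 FPKM). PBS replicate 1 was the highest control in 78 members. On day 9 the highest library was replicate 1 in 44 members, replicate 2 in 7 and replicate 3 in 47. Replicate 1 is the library with the most red cell marker RNA and replicate 3 the one with endothelial and leukocyte markers, and their part in these counts was not tested. The members' mean day 9 level had a median of 13.9 FPKM and ran from 2.11 (Eif2c2) to 2174 FPKM (Gnas), with 57 members at 10 FPKM or more and 10 at 100 FPKM or more.

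Just inside the difference of 0.8 were Ddn, Clk2 and Zdhhc7 at 0.80, 0.81 and 0.81, and just outside were Ddah1, Pard3 and Mfsd6 at 0.80, 0.79 and 0.79 (Ddah1 was 0.7985). Just inside the mean of 2 FPKM were Eif2c2, Olfr558 and Mark4 at 2.11, 2.62 and 2.77 FPKM, and just outside were Opcml, Slfn1 and Cacna2d2 at 1.78, 1.38 and 1.23 FPKM. Ddn, which encodes dendrin, a protein of the slit diaphragm, thus sits at the edge: it was at 12.6, 5.47 and 5.90 FPKM on day 9, at 4.73, 3.08 and 0.277 FPKM on day 14 and at 3.58, 4.62 and 3.47 FPKM in PBS.

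Among surface and junction proteins, Marveld1 and Itgb5 had the largest differences of the list. Marveld1, a MARVEL-domain membrane protein, was at 795, 328 and 302 FPKM on day 9, at 112, 103 and 45.7 FPKM on day 14 and at 179, 59.9 and 13.6 FPKM in PBS. Every day 9 library lay above the highest PBS library, while day 14 and PBS overlapped. Its difference was 2.99 against all PBS libraries and 2.04 without PBS replicate 3.

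Itgb5, the integrin beta 5 chain, which pairs with alpha v to bind vitronectin, was at 2125, 979 and 829 FPKM on day 9, at 474, 596 and 374 FPKM on day 14 and at 772, 361 and 42.9 FPKM in PBS. The lowest day 9 library was only 1.073 times the highest PBS library, and PBS replicate 1 was 17.6 times PBS replicate 3 on FPKM + 1. Its difference was 2.38 with PBS replicate 3 and 1.18 without it.

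Gja3, connexin 46, a gap junction protein best known from the lens, rested on no low control. It was at 53.4, 29.9 and 32.1 FPKM on day 9, at 3.90, 4.602 and 10.1 FPKM on day 14 and at 8.04, 14.5 and 21.3 FPKM in PBS. PBS replicate 3 was here the highest control, and the difference was 1.38 with it and 1.69 without it. Sirpa, the receptor for CD47 that signals through tyrosine phosphatases, was at 89.9, 52.4 and 54.4 FPKM on day 9, at 9.90, 9.75 and 5.32 FPKM on day 14 and at 33.5, 30.6 and 35.1 FPKM in PBS. The 3 groups of Sirpa did not overlap.

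Cldn20, a claudin of tight junctions, was at 4.57, 3.18 and 4.73 FPKM on day 9, listed at 0 in every day 14 library and at 1.90, 0.840 and 2.54 FPKM in PBS. It overlaps Tfb1m in RefSeq, and how reads of overlapping genes were shared out is not given in the sources used here. Upk1b, a uroplakin of the bladder lining, rests on 1 library: it was at 0.538, 0.0250 and 11.5 FPKM on day 9, listed at 0 in every day 14 library and at 0.0205, 0.0222 and 0.0206 FPKM in PBS. That library, ADR_D9 replicate 3, is the one with markers of other cells, whose part in the result was not tested.

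**Figure D3:**
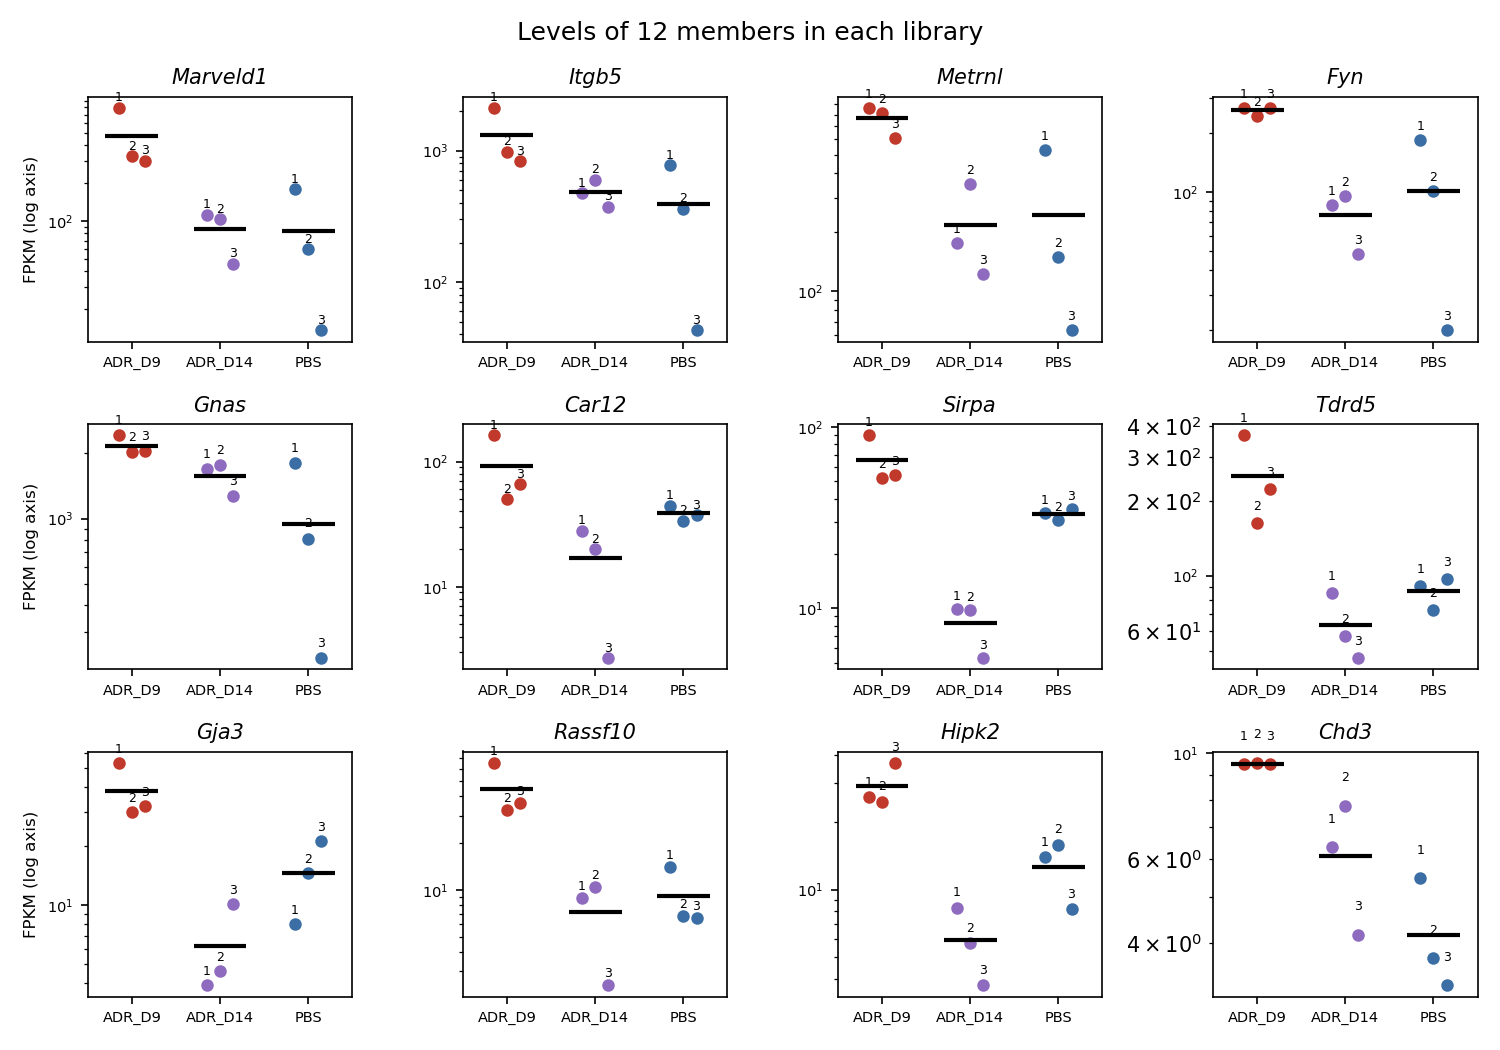
Points are FPKM values of 12 members in each library on logarithmic axes, numbered by replicate, and black lines are group means. Marveld1, Itgb5, Fyn and Gnas have PBS replicate 3 far below the other controls, whereas Car12, Sirpa, Tdrd5 and Gja3 do not. In Metrnl the PBS values are 527, 150 and 63.3 FPKM, so replicate 1 stands further above replicate 2 than replicate 3 lies below it.

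The transcription factors and co-regulators held 10 members. Ctbp1, a corepressor, was at 152, 160 and 150 FPKM on day 9, at 53.4, 50.5 and 58.0 FPKM on day 14 and at 144, 83.5 and 7.38 FPKM in PBS. The day 9 libraries were close to each other, but the highest PBS library came within 1.045 times of the lowest of them. Its difference was 1.73 with PBS replicate 3 and 0.49 without it. Creb3l1, a membrane-bound factor released from the endoplasmic reticulum by cleavage, was at 80.3, 47.5 and 28.8 FPKM on day 9, at 23.6, 21.7 and 13.2 FPKM on day 14 and at 26.9, 17.8 and 5.37 FPKM in PBS.

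Hoxa5, a homeobox factor, was low, at 3.63, 2.74 and 6.30 FPKM on day 9, at 0.522, 1.45 and 1.90 FPKM on day 14 and at 1.86, 1.98 and 0.385 FPKM in PBS. It overlaps Hoxa3 and the antisense gene Hoxaas3 in RefSeq. Other members of the group, Purb, Irf2bp1, Mafg, Nrip1, Zmiz2 and Zfp362, had day 9 means of 6.32 to 54.5 FPKM. The rule held without PBS replicate 3 for 3 of the 10, and 2 of the 10 (Creb3l1 and Purb) held without any 1 library.

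The 5 chromatin regulators were higher on day 9 by 1.05 to 1.43, and of them only Chd3 met the rule without PBS replicate 3. Chd3, a helicase of the NuRD complex, was at 9.499, 9.56 and 9.47 FPKM on day 9, at 6.35, 7.77 and 4.17 FPKM on day 14 and at 5.48, 3.72 and 3.26 FPKM in PBS. Its day 9 libraries differed from each other by less than those of any other group of Chd3, and the lowest was 1.73 times the highest PBS library. Carm1, an arginine methyltransferase that acts on histones and coactivators, was at 18.5, 16.1 and 22.2 FPKM on day 9, at 3.82, 3.54 and 3.24 FPKM on day 14 and at 14.2, 8.04 and 1.87 FPKM in PBS. Setd8, which places a single methyl group on histone H4, Brwd1 and Pwwp2a had day 9 means of 68.0, 23.0 and 9.60 FPKM.

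Transforming growth factor beta is secreted in a latent complex tethered by LTBP proteins, signals through receptor kinases and SMAD proteins, and is restrained by inhibitory SMADs. It is known in the kidney for driving glomerular scarring. Ltbp3, a tethering protein, was at 9.05, 6.78 and 7.54 FPKM on day 9, at 4.11, 1.85 and 1.83 FPKM on day 14 and at 4.68, 3.14 and 1.13 FPKM in PBS. Its relative Ltbp4 was at 4.49, 6.74 and 18.4 FPKM on day 9, at 2.38, 0.787 and 0.212 FPKM on day 14 and at 4.47, 4.29 and 2.33 FPKM in PBS. Ltbp3 held without any 1 library, whereas the lowest day 9 value of Ltbp4 was 1.005 times its highest PBS value. The receptor Acvr2b, which binds activins, was at 15.8, 12.6 and 12.5 FPKM on day 9, at 9.14, 4.65 and 6.99 FPKM on day 14 and at 12.2, 8.30 and 2.43 FPKM in PBS.

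Smad6, the inhibitory SMAD of BMP signalling, was at 31.8, 28.6 and 90.2 FPKM on day 9, at 13.4, 14.5 and 5.70 FPKM on day 14 and at 19.2, 17.2 and 1.55 FPKM in PBS. The high value stands in ADR_D9 replicate 3, where the endothelial markers sum to 3304 FPKM, and their part in the result was not tested. Smad6 met the rule also without that library.

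The Wnt pathway controls beta-catenin through a destruction complex. Its list of genes held Axin1 and Vangl1, and Ctnnbip1 and Tnks2 were added by role after their values were seen. Axin1, the scaffold of that complex, was at 40.6, 42.1 and 47.0 FPKM on day 9, at 22.7, 13.2 and 4.49 FPKM on day 14 and at 38.6, 32.9 and 3.24 FPKM in PBS. Day 9 and PBS replicate 1 were nearly equal, and the difference was 1.31 with PBS replicate 3 and 0.27 without it. Vangl1, of planar cell polarity, was at 17.6, 14.1 and 32.2 FPKM on day 9, at 10.3, 7.10 and 4.57 FPKM on day 14 and at 13.0, 11.3 and 8.63 FPKM in PBS. Ctnnbip1, an inhibitor of beta-catenin, and Tnks2, a tankyrase that marks axin for degradation, had day 9 means of 5.90 and 5.68 FPKM. None of these met the rule without PBS replicate 3.

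Kinases, phosphatases, receptors and G proteins made up the largest group, with 23 members, of which 16 met the rule without PBS replicate 3 and 12 without any 1 library. Fyn, the Src family kinase that phosphorylates nephrin at the slit diaphragm, was at 268, 243 and 267 FPKM on day 9, at 85.8, 95.4 and 48.3 FPKM on day 14 and at 184, 101 and 19.8 FPKM in PBS. Its day 9 mean was 259 ± 14.2 FPKM (SD, n = 3), and its difference was 1.83 with PBS replicate 3 and 0.92 without it.

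In the cyclic AMP route, Gs-coupled receptors raise cyclic AMP and protein kinase A responds to it. The members of this group named next were set together by role after their values were seen. No list of pathway genes covered this route. Gnas, the stimulatory G protein alpha subunit, was the most abundant member, at 2430, 2037 and 2056 FPKM on day 9, at 1694, 1764 and 1269 FPKM on day 14 and at 1805, 810 and 228 FPKM in PBS. All day 14 values lay inside the PBS range. Gnas overlaps its antisense gene Gnasas1, and the use of strand in counting is not given in the sources used here. Prkaca, the catalytic subunit of protein kinase A, was at 31.9, 34.6 and 27.3 FPKM on day 9, at 19.7, 12.7 and 12.7 FPKM on day 14 and at 27.1, 16.4 and 0.816 FPKM in PBS, and its difference was 1.74 with PBS replicate 3 and 0.54 without it. Adra2c, an adrenergic receptor coupled to the inhibitory G protein, was at 2.72, 6.22 and 5.57 FPKM on day 9, at 1.80, 1.29 and 0.0204 FPKM on day 14 and at 2.02, 0.418 and 0.0107 FPKM in PBS.

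Rassf10, a RAS-association protein described as a tumour suppressor, had the widest gap between groups among members above 0.1 FPKM in PBS. It was at 65.8, 32.5 and 36.2 FPKM on day 9, at 8.84, 10.4 and 2.43 FPKM on day 14 and at 13.96, 6.80 and 6.58 FPKM in PBS, a difference of 2.18 with PBS replicate 3 and 2.01 without it. Hipk2, a kinase that acts on p53 and has been tied to kidney fibrosis in mice, was at 25.9, 24.8 and 37.0 FPKM on day 9, at 8.29, 5.75 and 3.73 FPKM on day 14 and at 13.96, 15.9 and 8.17 FPKM in PBS. Every day 9 value of Hipk2 was at least 1.56 times the highest PBS value.

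Tyro3, a TAM receptor for Gas6 and protein S, was at 61.3, 31.6 and 20.7 FPKM on day 9, at 5.61, 5.63 and 0.954 FPKM on day 14 and at 20.6, 12.5 and 11.7 FPKM in PBS. Ppp1r13b, a partner of p53, was at 16.4, 11.9 and 30.8 FPKM on day 9, at 3.56, 3.90 and 2.76 FPKM on day 14 and at 8.75, 6.43 and 1.53 FPKM in PBS. The highest value of Tyro3 stood in ADR_D9 replicate 1, while its lowest day 9 value was 1.005 times its highest PBS value.

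Ppp6r1, a regulatory subunit of protein phosphatase 6, was at 18.9, 16.1 and 27.5 FPKM on day 9, at 5.71, 5.37 and 1.48 FPKM on day 14 and at 12.5, 9.60 and 1.67 FPKM in PBS. Sh2b3, an adaptor that damps cytokine receptor signalling, was at 9.37, 6.46 and 44.8 FPKM on day 9, at 6.32, 3.09 and 1.53 FPKM on day 14 and at 5.39, 4.68 and 1.06 FPKM in PBS. Olfr558, an olfactory receptor gene, was at 0.114, 0.101 and 7.64 FPKM on day 9, at 0.0535, 0.0278 and 0 FPKM on day 14 and at 0, 0.0128 and 0 FPKM in PBS. Both Sh2b3 and Olfr558 were far higher in ADR_D9 replicate 3 than in the other day 9 libraries. In 13 members that library was at least 2 times the mean of the other day 9 libraries, and they include Smad6, Trim62, Mark4, Cmip, Ltbp4 and Vangl1. The same library holds summed endothelial and leukocyte markers of 3304 and 1332 FPKM, and their part in these 13 was not tested.

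Secreted and collagen-processing proteins had 4 members. Metrnl, a secreted protein related to meteorin, was at 867, 815 and 609 FPKM on day 9, at 178, 354 and 122 FPKM on day 14 and at 527, 150 and 63.3 FPKM in PBS. Adamts2, the protease that trims procollagen, was at 8.41, 2.59 and 4.93 FPKM on day 9, at 0.288, 0.214 and 0.0173 FPKM on day 14 and at 1.496, 1.33 and 0.236 FPKM in PBS. Its 2 highest PBS values lay above every day 14 value, and all 3 PBS values below every day 9 value.

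Leprel1, a prolyl hydroxylase that modifies collagen, was at 46.7, 34.3 and 31.9 FPKM on day 9, at 3.27, 8.06 and 8.23 FPKM on day 14 and at 29.7, 19.8 and 5.21 FPKM in PBS. Calca, the gene of calcitonin and its related peptide, was at 89.0, 85.4 and 57.4 FPKM on day 9, at 27.0, 49.9 and 8.77 FPKM on day 14 and at 34.0, 35.5 and 56.0 FPKM in PBS. Calca had PBS replicate 3 as its highest control, and met the rule in only 5 of the 9 sets that leave 1 library out, of which the 3 without a day 14 library cannot fail.

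RNA-binding proteins had 7 members. Tdrd5, a Tudor-domain protein known from the mouse germ line, was the highest of them, at 367, 163 and 224 FPKM on day 9, at 85.1, 57.5 and 46.7 FPKM on day 14 and at 91.0, 72.6 and 97.4 FPKM in PBS. Its controls were close to each other (87.0 ± 12.8 FPKM, SD, n = 3), and the difference was 1.45 with PBS replicate 3 and 1.54 without it. Upf1, the helicase of nonsense-mediated decay, was at 5.96, 4.66 and 8.75 FPKM on day 9, at 4.51, 0.639 and 0.915 FPKM on day 14 and at 3.37, 1.59 and 1.45 FPKM in PBS. Larp1, which binds mRNAs of the translation machinery, and Eif4ebp2, a repressor of cap-dependent translation, had every day 9 value at least 1.719 and 1.585 times the highest PBS value. Larp1 was at 5.58, 5.41 and 5.74 FPKM on day 9, at 4.31, 0.896 and 0.840 FPKM on day 14 and at 3.15, 2.76 and 1.39 FPKM in PBS. Its difference was 0.98 with PBS replicate 3 and 0.74 without it, so Larp1 did not meet the rule without that library. Eif4ebp2 did, with a difference of 1.01 in both cases.

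Proteins of small GTPase signalling and cell shape had 8 members, with day 9 means of 3.40 to 15.7 FPKM. Plekhg5, an exchange factor that activates small GTPases, was at 12.6, 6.33 and 8.36 FPKM on day 9, at 4.09, 3.35 and 0.423 FPKM on day 14 and at 4.76, 3.48 and 3.83 FPKM in PBS. Another, Arhgef12, was at 11.2, 4.93 and 7.55 FPKM on day 9, at 3.14, 2.85 and 1.91 FPKM on day 14 and at 3.12, 3.35 and 4.34 FPKM in PBS. Both had closely spaced controls, and their differences were 0.97 and 0.90 with PBS replicate 3 and 0.94 and 1.01 without it.

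Car12, a membrane carbonic anhydrase and a target of hypoxia signalling, was at 163, 50.3 and 65.6 FPKM on day 9, at 28.0, 19.9 and 2.70 FPKM on day 14 and at 44.5, 33.8 and 37.3 FPKM in PBS. Its 3 groups did not overlap. Cnnm3, a magnesium transport mediator, was at 9.63, 7.36 and 11.0 FPKM on day 9, at 3.83, 2.72 and 1.97 FPKM on day 14 and at 7.26, 0.952 and 0.895 FPKM in PBS. Rnf130, a ubiquitin ligase of membranes, was at 296, 269 and 290 FPKM on day 9, at 201, 244 and 218 FPKM on day 14 and at 265, 159 and 30.9 FPKM in PBS. Rnf130 on day 9 thus hardly exceeded PBS replicate 1, and its difference was 1.37 with PBS replicate 3 and 0.47 without it.

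The 6 members for glycosylation, lipidation and membrane traffic had day 9 means of 3.23 to 24.1 FPKM. Man2a2, a mannosidase of N-glycan trimming, held without any 1 library, at 10.2, 4.46 and 6.32 FPKM on day 9, at 2.25, 0.665 and 0.387 FPKM on day 14 and at 2.34, 2.92 and 1.62 FPKM in PBS. Fut11, a fucosyltransferase, had close controls, at 10.2, 8.86 and 15.6 FPKM on day 9, at 2.55, 2.91 and 2.96 FPKM on day 14 and at 5.75, 5.70 and 6.197 FPKM in PBS. For 13 members no role is given here. They include AI480653, 2510039O18Rik, Btbd2 and Cdr2l, whose differences were 1.94, 1.92, 1.79 and 1.48 with PBS replicate 3 and 1.12, 0.63, 0.81 and 0.63 without it.

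Day 14 against PBS is the contrast that the rule did not name, although both groups had to lie below day 9. In limma across all genes, with Benjamini-Hochberg adjustment and all 9 libraries in the fit, 3 of the 96 tested members were lower on day 14 (3.13%), against 10.7% of all genes tested, and 0 were higher, against 6.32%. At an unadjusted p under 0.05 the same limma fit had 11 members lower and 0 higher, against 21.45% and 12.75% of all genes tested. The members' share lay below the background in both directions. Since the rule used the PBS and day 14 values, this describes the list and is no result about its genes. The members' values were also more spread. The median SE of the change was 0.48 on log2(FPKM + 1) in the members and 0.34 in all genes tested. The highest PBS value was a median of 2.58 times the lowest on FPKM + 1 in the members and 1.35 times in all genes tested.

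Sirpa fell by 1.91 ± 0.30 (SE, log2 scale; adjusted p = 0.0106 by limma), to 8.32 ± 2.60 FPKM on day 14, against 33.1 ± 2.26 FPKM in PBS (SD, n = 3 each). Cldn20 passed the same limma test at an adjusted p of 0.0155, and since it is listed at 0 on day 14, no fold is given. All 3 calls were lost when PBS replicate 2 or PBS replicate 3 was left out of the fit, with adjusted p values by limma of up to 0.0664 for Sirpa and Cldn20. The day 14 libraries also had the lowest depth.

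**Figure D4:**
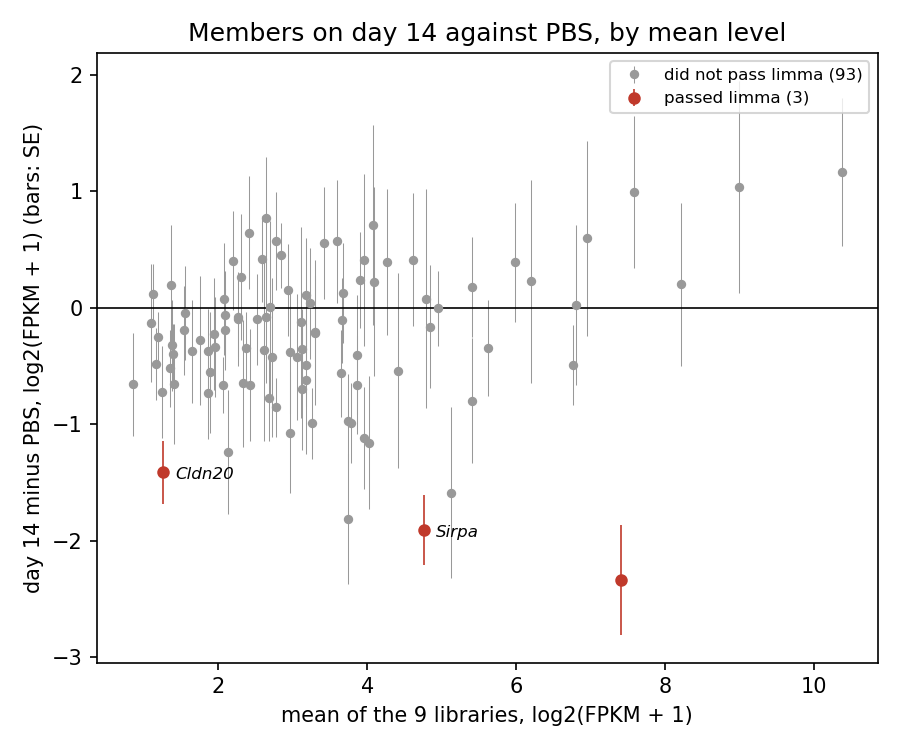
Each point is 1 of the 96 tested members, with its mean level on log2(FPKM + 1) over all libraries on the horizontal axis and its change on day 14 against PBS on the vertical axis, with SE. Of the 3 that passed limma, all below 0, Sirpa and Cldn20 are labelled, at changes of −1.91 and −1.41, and 0 members passed above 0.

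Day 14 lay wholly below PBS in 10 of the 98 members (10.2%), against 23.8% of all genes tested, among them Upk1b, Tyro3, Car12, Cldn20, Sirpa, Mark4, Fut11, Glcci1 and Sh3d19. Of these, Upk1b was not among the genes tested. It is counted on values near the floor, at most 0.0222 FPKM in PBS and 0 on day 14. Day 14 lay wholly above PBS in 0 members, against 15.6% of all genes tested, and in 88 members day 14 and PBS overlapped. The rule capped day 14 and used the PBS values, so these shares describe the list and are no result about its genes. Of the 31 members that held without any 1 library, 0 had day 14 wholly below PBS. The members' median change on day 14 was −0.22 on the log2 scale, where that of all genes tested was −0.15, and 63 of the 96 changes were negative. The members' median was 0.07 with the length and GC trend removed, 0.04 without PBS replicate 1 and −0.55 without PBS replicate 3, so its direction did not hold. Scaling moved the median of all genes tested, to −0.03 with median-of-ratios factors and −0.34 with a common total, so changes on day 14 are to be read against it; Sirpa and Cldn20 kept their direction under every alternative run.

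Changes on day 14 that did not pass are given as values. The change was −1.81 ± 0.56 for Tyro3 (SE; adjusted p = 0.0555 by limma), −0.85 ± 0.26 for Fut11 (adjusted p = 0.0517 by limma) and −0.99 ± 0.30 for Glcci1 (adjusted p = 0.0556 by limma). Tyro3 and Fut11 had day 14 below every control, as did Glcci1, a gene named for its induction by glucocorticoids. At the other end, Gnas was 1.17 ± 0.63 (adjusted p = 0.225 by limma; 0.37 without PBS replicate 3 and 1.86 without PBS replicate 1) and Itgb5 1.04 ± 0.91 (adjusted p = 0.452 by limma). The value of Itgb5 changed sign, to −0.16, without PBS replicate 3, so its direction rests on that library.

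**Figure D5:**
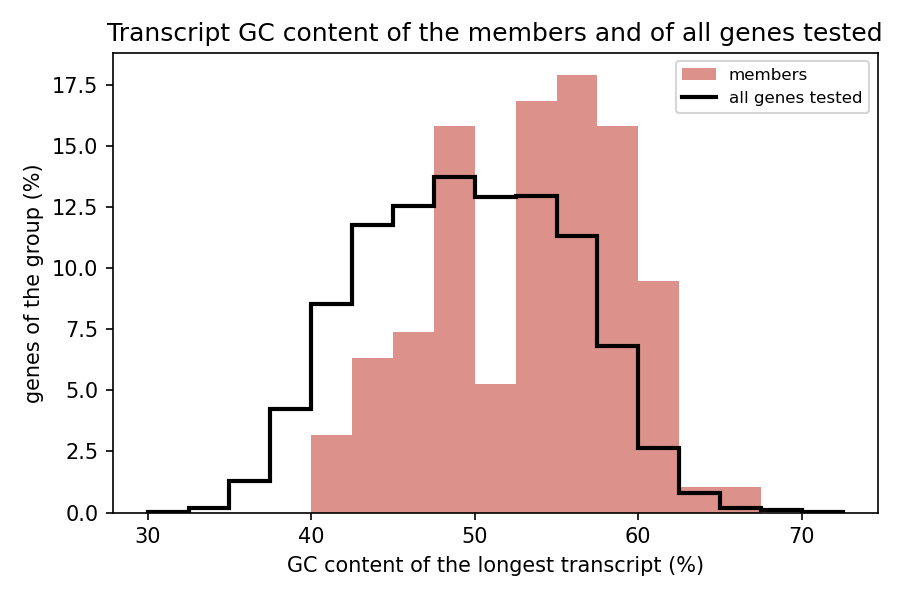
Bars show the percentage of the 95 matched members and the black line that of all genes tested in each bin of GC content of the longest transcript. The members' distribution is shifted to higher GC, with a median of 54.4% against 49.6% for all genes tested.

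The members' transcripts were rich in GC. Of the 98, 95 were matched to an annotated transcript, with a median GC content of 54.4% (40.4% to 65.5%), against 49.6% in all genes tested, and 41 of the 95 (43.2%) stood in the fifth of tested genes with the highest GC and 7 in the fifth with the lowest. Their median transcript length was 3862 bases, against 3176 bases in all genes tested. PBS replicate 3 was at least 0.8 below the mean of the other PBS libraries in 16.5% of the fifth with the highest GC and 7.04% of the fifth with the lowest. The share was also larger at the highest GC in the ADR libraries, measured against the same PBS mean. In ADR_D9 it was 10.7% and 5.09% in replicate 1, 4.01% and 1.44% in replicate 2 and 8.68% and 5.19% in replicate 3. In ADR_D14 it was 34.05% and 25.53% in replicate 1, 28.56% and 12.63% in replicate 2 and 37.7% and 11.97% in replicate 3. With a smooth trend of each library on GC and length removed, an alternative chosen after seeing the data, the rule found 64 genes, 52 of them members. The part of GC content in the members' low PBS replicate 3 was not tested beyond this.

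The lists of pathway genes give the members beside other genes of their pathways. Over all genes tested, 0.981% met the membership rule, 10.7% were lower and 6.32% higher on day 14 by limma, and the lists' counts are to be read against these shares. The slit diaphragm and foot process list had 37 tested genes, of which 10 were lower and 0 higher on day 14 by limma. Its only member was Tdrd5, placed above with the RNA-binding proteins, and a place on the list shows no role at the slit diaphragm. The member Ddn, described above as a protein of the slit diaphragm, was not on that list. Of 16 podocyte transcription factors tested, 2 were lower and 0 higher, and Hoxa5 was among the members. Of 29 basement membrane and adhesion genes tested, 12 were lower and 0 higher, with Itgb5 the only member. The list of actin and small GTPase regulators held Arhgef12 and Plekhg5 among 81 tested genes, 21 lower and 0 higher.

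The TGF-beta and BMP list held the most members, 4 of 38 tested genes (Smad6, Ltbp3, Ltbp4 and Acvr2b), and 2 of the 38 were lower and 0 higher on day 14, where 0.981% of all genes tested met the rule and 10.7% were lower. Smad6 and Ltbp3 met the rule whichever 1 library was left out. Acvr2b did not meet it without PBS replicate 3, where its difference was 0.40. The lowest day 9 value was 1.028 times the highest PBS value in Acvr2b and 1.005 times in Ltbp4. The count of 4 was not tested. Of 28 Wnt genes tested, 1 was lower and 0 higher, with Axin1 and Vangl1 as members. Of 79 chromatin genes, 4 were lower and 4 higher, with Chd3 as the member. That list did not count the members Carm1, Setd8, Brwd1 and Pwwp2a, described above as chromatin regulators. Of 16 hypoxia targets 3 were lower and 0 higher, with Car12 as the member. The other 12 lists held 0 members: guidance cues, vascular growth factors, Notch, Hippo, ion channels, immediate early genes, p53 targets, immune signals, cell cycle, lipid metabolism, circadian clock and glucocorticoid targets. Among the lists, the median day 9 difference was lowest in the 28 tested p53 targets, at −0.99 on the log2 scale. It was highest in the 38 TGF-beta and BMP genes, at 0.46, which include the 4 members chosen for high day 9 values. That of all genes tested was 0.04. These medians come from the contrast that chose the members, so they describe the lists and were not tested.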

How the data were processed

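RNA of GFP-positive podocytes was depleted of ribosomal RNA and sequenced in 9 libraries, 3 each of ADR_D9, ADR_D14 and PBS, per the labels' protocols. The values are FPKM, deposited by the authors as 1 table of 23813 rows. Bowtie 0.12.7, Cufflinks and the build mm9 are named in the submitters' processing notes, without roles; the annotation and strand setting are not stated there. Depth is not stated, so no counting intervals are given. For 260 symbols on more than 1 row the row of highest mean was kept. Near-identical or overlapping genes are uncertain, and 48 of the 98 members overlap another RefSeq gene.

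Members were found on log2(FPKM + 1), a scale that understates changes of low genes. The 9788 genes that reached 1 FPKM in 3 or more libraries entered limma 3.58.1 (R 4.3.3) with a variance trend, group as the only term, two-sided, Benjamini-Hochberg adjustment and a threshold of 0.05; the script was tested on simulated data. Transcript GC and length came from GENCODE M21 and promoter windows from RefSeq GRCm38.p6, matched by symbol. Coordinates are of GRCm38.p6 and not of mm9.

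The members and lists were chosen with earlier results of these data known. Genes named are the 20 of largest difference, the 10 of highest day 9 mean, members of the lists, those next to the thresholds and those past the day 14 test. Other genes named, and the roles, were chosen after their values were seen. Same-numbered libraries did not deviate together, so the numbers were not used as pairs. Some members that the rule for names would include, and 1 motif, are not reported here. Alternatives covered thresholds, filter, pseudocount, scaling, GC, length and leaving out libraries.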

Additional observations from a re-analysis of the deposited data

How the results depend on the processing

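The number of members moved from 98 to 159 at a minimum difference of 0.5, to 19 at 1.5, to 55 with median-of-ratios scaling, to 59 with quantile normalization, to 156 with a common total and to 185 without ADR_D9 replicate 3 and ADR_D14 replicate 1. With the length and GC trend removed, chosen after seeing the data, it was 64. Leaving out 1 library at a time gave 63 (without PBS replicate 3) to 259 (without ADR_D9 replicate 2). Without PBS replicate 3, ADR_D9 replicate 3 and ADR_D14 replicate 1 together, also chosen after seeing the data, 124 genes met the rule, 40 of them members. Of the 98 members, 55 were kept with median-of-ratios scaling, 44 with quantile normalization and 98 with a common total. Without the pair ADR_D9 replicate 3 and ADR_D14 replicate 1, 76 were kept.

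The count of members lower on day 14 by limma, 3 as reported, was 5 with a filter of 5 FPKM, 8 with a common total, 9 without that pair, 8 at an adjusted p under 0.1, 0 at 0.01 and 0 to 7 with 1 library left out. The count higher was 0 as reported and 1 (Chd3) with the length and GC trend removed.

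Of all genes tested, 1051 were lower and 619 higher as reported. The lower count was 661 with no filter, 657 with quantile normalization, 1679 with a common total, 301 with only the PBS and ADR_D14 libraries, 645 with the length and GC trend removed, 1699 at an adjusted p under 0.1 and 74 under 0.01. The higher count was 336 with no filter, 169 with only the PBS and ADR_D14 libraries, 292 with the length and GC trend removed, 992 under 0.1 and 38 under 0.01. With 1 library left out the ranges were 0 to 1174 lower and 0 to 738 higher, and both were 0 without PBS replicate 2.

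The members' median change on day 14 reversed from −0.22 to 0.0694 with the length and GC trend removed and to 0.0365 without PBS replicate 1, and its range with 1 library left out was −0.5488 to 0.0365. The median of all genes tested was −0.22 with a pseudocount of 0.1, −0.0079 with no filter, −0.028 with median-of-ratios scaling and −0.34 with a common total. Itgb5 reversed from 1.04 to −0.16 without PBS replicate 3, and its range with 1 library left out was −0.16 to 1.91. Sirpa, with adjusted p values of 0.00722 to 0.0664 by limma, kept its direction in all 21 alternatives and lost its call in 2. The cause of these changes was not tested.

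With the replicate number as a block, 4 members were lower and 0 higher, and of all genes tested 781 were lower and 520 higher. Same-numbered libraries of different groups correlated at −0.265 to 0.431 in their deviations from group means, so the pairing is not supported by the data. What size of change these 9 libraries can show at low levels was not measured.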
